A study of Mus musculus with 3 samples.

Results

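To examine gene expression after introduction of Slpi, Hepa1c1c7 cells carrying a Slpi vector were compared with Hepa1c1c7 cells carrying the empty vector. Hepa1c1c7 is an established mouse hepatoma cell line. The Slpi vector was a purchased clone of the mouse Slpi coding sequence (NM_011414) and the control was the plasmid pCMV6-Kan/Neo, each given with the same reagent and followed by the same time in culture. The series held 3 one-colour Agilent mouse arrays, 1 per vector, and the third array, of cells given a Mst1r vector, is used here only for values side by side. All 3 lay on 1 slide read in 1 scan. The names Slpi vector, empty vector and Mst1r vector mean the arrays labelled so.

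The first 128 rows of spots held stray bright spots and were left out. Among spots of ERCC spike-in control probes whose median was under 15 on both arrays, 22 of 898 in these rows exceeded a processed signal of 50 with empty vector and 25 of 898 with Slpi vector, against 0 and 1 of 1754 in the remaining 256 rows, which were used. Of the 37807 gene probes with a spot in these rows, 17136 were well above background on both arrays, and the brightest probe of each name gave 14460 features, 9559 of them with a gene symbol. The arrays held 45616 such features in all. The unit is the processed signal, a background-subtracted spot brightness. Differences are log2 Slpi vector minus log2 empty vector after each array was scaled to its 75th percentile, which was 254 with Slpi vector and 268 with empty vector. A single array per vector allows no test, and the number after ± is the SD that repeated spots of 1 probe gave for a difference at that signal. It covers the array and no variation between cultures.

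Slpi, secretory leukocyte peptidase inhibitor, is a small secreted protein with a pair of WAP domains that blocks neutrophil elastase, cathepsin G and related serine proteases. Epithelial cells and phagocytes release it, and it is also known to dampen NF-kB signalling. Genes of inflammation, proteases and their inhibitors, growth and liver function were therefore followed as lists.

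The 2 arrays were very alike. Over the 14460 features the Pearson correlation of the log2 signals was 0.997 and the Spearman correlation was 0.996. The median difference was -0.0017, 98.8% of the features were within 1.5-fold and 89.6% were within 1.2-fold. Among the 14067 features that were also well above background with Mst1r vector, the SD of the differences from empty vector was 0.23 for Slpi vector and 0.35 for Mst1r vector, and 98.8% and 93.9% were within 1.5-fold, respectively. Both comparisons use the same empty vector array, and with 1 array per vector this contrast was not tested.

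The spread of the differences was compared with the spot error by signal class. The spread is the interquartile range scaled to an SD, which leaves out the tails, while the spot error is a pooled SD. In the dimmest class, with a log2 signal under 6 on the dimmer array, the spread between 3158 features was 0.24 and the SD between repeated spots was 0.21. Above a log2 signal of 14, the values were 0.066 between 930 features and 0.064 between spots. From 8 to 10 the spread was 0.12 between 2948 features and 0.075 between spots, a ratio of 1.62, and from 10 to 12 it was 0.11 between 2748 features and 0.059 between spots, a ratio of 1.90. In these 2 classes the features spread more widely than the spots, and 3 and 4 repeated probes gave the spot error. In the other 4 classes the ratio lay between 1.04 and 1.17. The plain SD between features, tails included, was larger. From the dimmest class to the brightest it was 0.34, 0.26, 0.20, 0.14, 0.14 and 0.0885, above the SD between spots in every class.

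**Figure D1:**
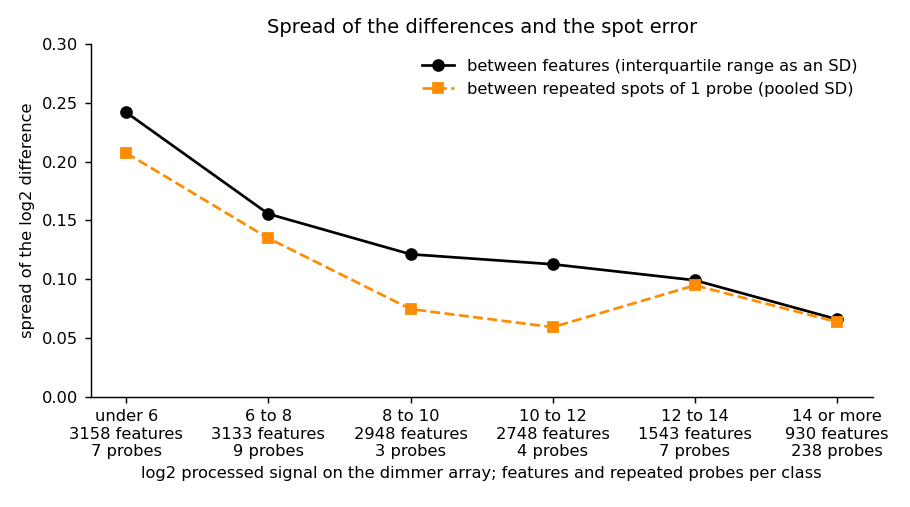
Spread of the log2 difference between Slpi vector and empty vector (vertical axis) by the log2 processed signal on the dimmer array (horizontal axis). Circles are the spread between features, as the interquartile range scaled to an SD, and squares are the pooled SD between repeated spots of 1 probe. Both lines are lower in the brightest class (0.066 and 0.064) than in the dimmest (0.24 and 0.21). The line for spots does not fall steadily, with 0.059 from 10 to 12 and 0.095 from 12 to 14.

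Slpi itself did not stand out on the array of its own vector. The brighter of its 2 probes read 6459 on the empty vector array, 6680 on the Slpi vector array and 3843 on the Mst1r vector array. The dimmer Slpi probe, in row 380, read 106, 85.8 and 91.7 in the same order. The scaled differences were 0.13 ± 0.09 and -0.23 ± 0.13, so the probes pointed in opposite directions and neither reached 1.5-fold. The sign for the brighter probe turned to -0.11 when the spike-in controls were set equal. The files do not say whether either probe lies in the coding sequence that the vector carried, so the label could not be checked this way, and every direction below rests on the label.

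A feature was called when it differed at least 1.5-fold and by over 3 times the spot error. This gave 92 features called higher with Slpi vector, 0.636% of those compared, and 62 called lower, 0.429%. At 2-fold the counts were 50, or 0.346%, and 10, or 0.0692%. The smallest difference called was 0.59 for Gm13580, and the largest that was not called was -0.62 for XM_011243418, within 3 times its spot error of 0.21. The split depended on the scaling: 161 higher and 19 lower with median scaling, 78 and 101 with no scaling, and 62 and 358 with the spike-in controls set equal. With normexp background correction, which adds an offset to every spot, 62 higher calls and 4 lower calls were left. The offset of 50 shrinks differences most at signals near or below 50. A dim call lost with normexp, here and below, therefore does not show that its difference was absent.

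**Figure D2:**
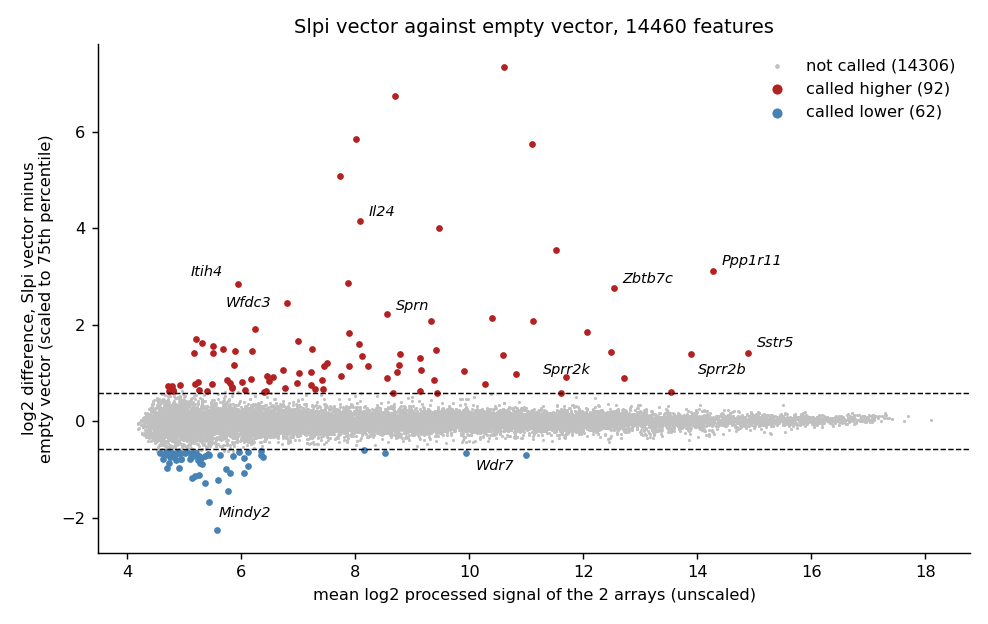
Log2 difference between Slpi vector and empty vector (vertical axis, scaled to the 75th percentile) against the mean log2 processed signal of both arrays (horizontal axis) for 14460 features. Red points are the 92 features called higher, blue points the 62 called lower, and dashed lines mark 1.5-fold. Higher calls occur at all signal levels and reach 7.35, while lower calls lie mostly at dim signals.

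The largest differences belonged to features without a gene symbol. ENSMUST00000133300 read 126 on the empty vector array, 19428 on the Slpi vector array and 116 on the Mst1r vector array, 163-fold for Slpi vector (7.35 ± 0.13). An interval on chromosome 11 at 95113972 to 95114267 (mm9, forward strand) read 41.2, 4222 and 32.6 in that order, the order kept below, 108-fold (6.76 ± 0.21). ENSMUST00000151818 read 34.8, 1907 and 35.9, 57.9-fold (5.85 ± 0.21). In each of these the empty vector and Mst1r vector arrays were close and the Slpi vector array stood far above them. Over all 92 higher calls, 8 were at least 10-fold and 17 at least 4-fold. With normexp the 3 differences were 6.70, 5.48 and 4.40. The files pair no gene name with these features.

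Il24, a cytokine of the IL-10 family, had the largest difference among named genes. Its probe in row 142 read 66.1 on the empty vector array, 1107 on the Slpi vector array and 134 on the Mst1r vector array, 17.7-fold for Slpi vector (4.14 ± 0.13). A second Il24 probe, in row 79 outside the rows compared, was past the call rule the other way, at 141, 72.0 and 413 (-0.89 ± 0.13). With normexp the called probe differed by 3.19.

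Ppp1r11, an inhibitory subunit of protein phosphatase 1, followed among named genes. It read 6860, 56685 and 5414, 8.72-fold (3.12 ± 0.09). Zbtb7c, a BTB zinc finger transcription factor, read 2344, 14989 and 2043, 6.75-fold (2.75 ± 0.06). Its other probe, in row 10, gave 140 with empty vector and 124 with Slpi vector. For both genes the empty vector and Mst1r vector arrays were within 1.5-fold of each other, and the Slpi vector array was apart.

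Another 5 named genes were highest with Slpi vector. Tas1r3, a subunit of the sweet and umami taste receptors, read 88.5, 615 and 146, 7.34-fold (2.88 ± 0.13). Itih4, an acute phase protein secreted by the liver, read 23.5, 161 and 21.3, 7.23-fold (2.85 ± 0.21), and its other probe, in row 286, was not well above background on either array. Wfdc3, which carries WAP domains as Slpi does, read 49.3, 254 and 33.8, 5.44-fold (2.44 ± 0.21). The second Wfdc3 probe lay in row 306 and differed by 0.16, with 25.7 on the empty vector array and 27.1 with Slpi vector. Only 1 of the 2 Wfdc3 probes therefore showed the difference. Mirt1, a long noncoding RNA, read 39.8, 143 and 18.4, 3.78-fold (1.92 ± 0.21). Syn1, the synaptic vesicle protein synapsin, read 23.2, 67.8 and 21.3, 3.08-fold (1.62 ± 0.21). Normexp lowered the differences of these dim probes, to 1.55 for Itih4, 1.65 for Wfdc3, 1.06 for Mirt1 and 0.73 for Syn1, and a mean over both probes gave 1.30 for Wfdc3.

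The remaining named genes of this size shared another order of the arrays, with Mst1r vector above Slpi vector and Slpi vector above empty vector. Sprn, which encodes the prion-like protein Shadoo, gave 178 with empty vector, 789 with Slpi vector and 1727 with Mst1r vector, 4.69-fold for Slpi vector (2.23 ± 0.13). Akr1d1, the steroid 5-beta-reductase of bile acid synthesis, gave 21.0, 64.8 and 123 in that order, 3.26-fold (1.70 ± 0.21). Qrich2, a glutamine-rich protein of sperm flagella, gave 73.6, 220 and 543, 3.15-fold (1.66 ± 0.13). Rpe65, the retinoid isomerase of the visual cycle, gave 31.5, 84.0 and 205, 2.82-fold (1.49 ± 0.21). With normexp Akr1d1 differed by 0.70 and Rpe65 by 0.81. A second Akr1d1 probe, in row 34, gave 52.8 with empty vector and 36.5 with Slpi vector (-0.45).

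The 2 vectors share the empty vector array as their control, so their differences are given only side by side. Over the 92 features called higher, the difference from empty vector ran from 0.59 to 7.35 with Slpi vector, by which they were chosen, and from -2.35 to 3.75 with Mst1r vector.

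**Figure D3:**
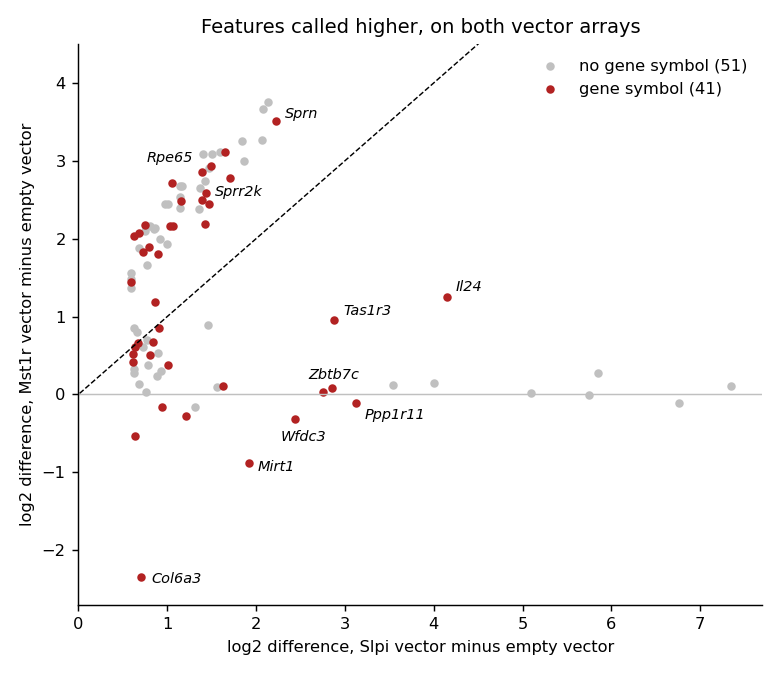
The 92 features called higher with Slpi vector, by their log2 difference from empty vector with Slpi vector (horizontal axis) and with Mst1r vector (vertical axis). Both axes use the same empty vector array, the dashed line marks equal differences, and red points have a gene symbol. Points lie on both sides of the dashed line, and the values run from 0.59 to 7.35 for Slpi vector and from -2.35 to 3.75 for Mst1r vector.

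Members of the Sprr2 family, small proline-rich proteins of the cornified envelope of epithelia, gave 2 of the higher calls. Sprr2b gave 9622 with empty vector, 23902 with Slpi vector and 46492 with Mst1r vector, 2.62-fold for Slpi vector (1.39 ± 0.09). Sprr2k gave 3595, 9219 and 18452, 2.71-fold (1.44 ± 0.06). The neighbouring family members did not share this pattern. Sprr2e gave 86.3, 75.2 and 92.0, Sprr2g gave 92.0, 77.3 and 83.1, and Sprr2a2 gave 122390, 116500 and 104710. Both called Sprr2 genes were picked for display with their values in view.

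The promoters of the called pair and of Sprr2e are shown because these genes lie in 1 cluster on chromosome 3 and differed in their arrays. Sequences are from RefSeq (GRCm38.p6, all on the forward strand), 300 bases around the start, with matches to TATAAA or to the AP-1 letters TGANTCA (either strand) in capitals.
Sprr2b, chr3:92316455-92316754: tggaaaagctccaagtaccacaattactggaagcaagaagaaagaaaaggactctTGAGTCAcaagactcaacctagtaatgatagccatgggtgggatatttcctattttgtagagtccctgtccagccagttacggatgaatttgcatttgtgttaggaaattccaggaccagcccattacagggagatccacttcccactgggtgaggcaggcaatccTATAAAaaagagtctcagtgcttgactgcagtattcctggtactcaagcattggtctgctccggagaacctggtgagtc
Sprr2k, chr3:92432332-92432631: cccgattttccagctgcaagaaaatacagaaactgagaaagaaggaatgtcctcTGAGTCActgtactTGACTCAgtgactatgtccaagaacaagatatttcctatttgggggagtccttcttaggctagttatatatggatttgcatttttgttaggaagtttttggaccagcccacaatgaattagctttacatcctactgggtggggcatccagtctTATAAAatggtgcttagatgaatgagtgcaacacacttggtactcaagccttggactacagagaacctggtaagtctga
Sprr2e, chr3:92351893-92352192: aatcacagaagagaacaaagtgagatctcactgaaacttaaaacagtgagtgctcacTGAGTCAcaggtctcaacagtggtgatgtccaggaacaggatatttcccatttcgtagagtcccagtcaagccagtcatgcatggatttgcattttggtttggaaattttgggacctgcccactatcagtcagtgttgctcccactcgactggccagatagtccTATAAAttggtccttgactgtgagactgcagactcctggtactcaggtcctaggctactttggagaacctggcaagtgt
Each of the 3 windows held 1 TATAAA match, which 13.6% of 32851 promoters of this length hold. Sprr2b and Sprr2e held 1 AP-1 match and Sprr2k held 2, while 7.81% of all promoters hold at least 1. The letters were thus found in Sprr2e as well, whose signal was not called.

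Another 4 named genes with Mst1r vector above Slpi vector were picked with their values in view. Sstr5, a somatostatin receptor, gave 18957 with empty vector, 48194 with Slpi vector and 73366 with Mst1r vector, 2.68-fold for Slpi vector (1.42 ± 0.06). Its second probe, in row 290, gave 51.8 with empty vector and 41.1 with Slpi vector. Cd28, the costimulatory receptor of T cells, gave 40.1, 84.7 and 192, 2.23-fold (1.16 ± 0.21). Grhpr, which reduces glyoxylate in the liver, gave 405, 801 and 1546, 2.09-fold (1.06 ± 0.07). The other Grhpr probe, in row 80, gave 7519 with empty vector and 7269 with Slpi vector. Brpf1, a chromatin reader of histone acetyltransferase complexes, gave 5056, 8918 and 15069, 1.86-fold (0.90 ± 0.09). A second Brpf1 probe, in row 77, was past the call rule in the opposite direction, with 64.8 on the empty vector array and 38.6 with Slpi vector (-0.67 ± 0.21). With normexp Cd28 differed by 0.55 and was not called.

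**Figure D4:**
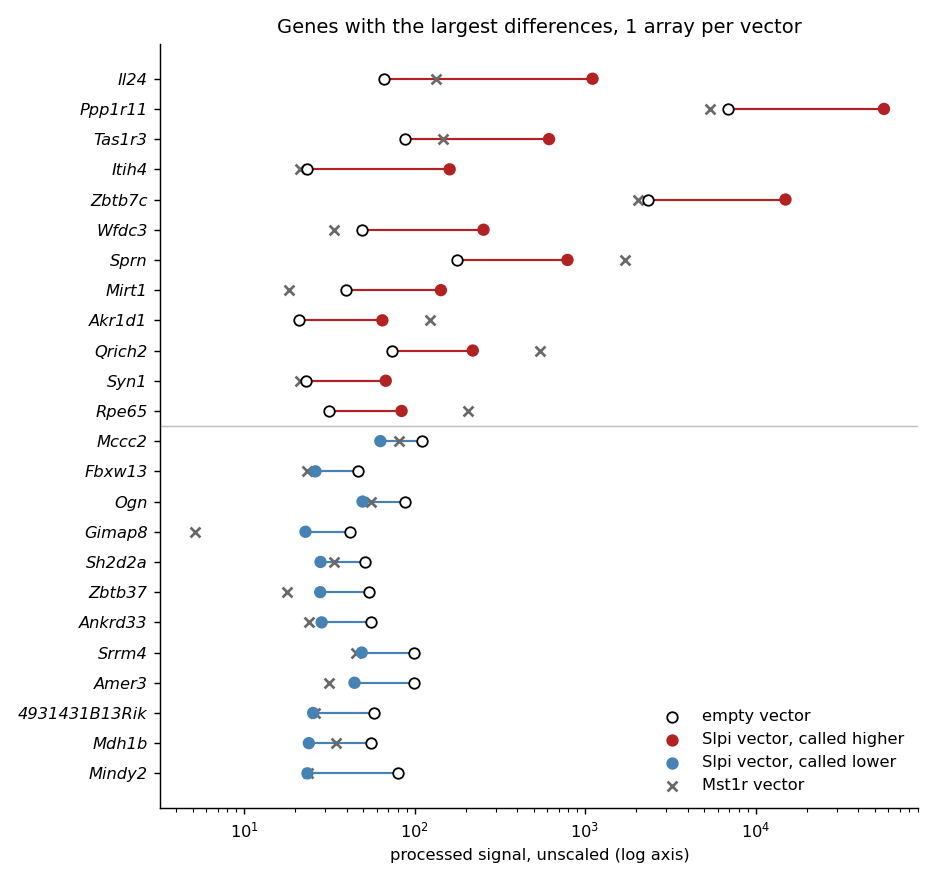
Processed signal (log axis, unscaled) of the 12 named genes called higher and the 12 called lower with the largest differences. Open circles are empty vector, filled circles Slpi vector (red higher, blue lower), and crosses Mst1r vector, with 1 array each. The lower calls lie between 22.9 and 111 on the 2 arrays compared, and the higher calls reach 56685.

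The features called lower with Slpi vector were dim. Their median signal on the brighter array was 51.0, against 254 for the features called higher. On that array 4 of the 62 exceeded 200, compared with 52 of the 92. Of all 14460 features, 8696 exceeded 200 on both arrays, a stricter limit than on the brighter array alone. The first 64 of the rows used held 26.1% of the features, 58.1% of the lower calls and 40.2% of the higher calls, and the part of array position in these counts was not tested. Without those 64 rows, and with the spot error taken from the rest, 64 features were called higher and 35 lower.

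ENSMUST00000161218 had the largest lower call, with 107 on the empty vector array, 21.2 with Slpi vector and 16.6 with Mst1r vector (-2.25 ± 0.21). An interval on chromosome 14 at 33115110 to 33131171 (mm9, forward strand) gave 92.7, 32.3 and 35.4 (-1.44 ± 0.21), and AK040314 gave 65.8, 25.7 and 15.5 (-1.28 ± 0.21). All 3 probes lay in rows 131 to 141, near the rows left out. In all 3 features the empty vector array was the one that stood apart. With normexp they differed by -0.90, -0.61 and -0.37.

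Among named genes, Mindy2, a deubiquitinase, had the largest lower call, with 79.9 on the empty vector array, 23.5 with Slpi vector and 23.8 with Mst1r vector (-1.68 ± 0.21). Its 2 other probes, both outside the rows compared, differed by -0.24 and -0.01. Mdh1b, a malate dehydrogenase relative, gave 55.4, 24.0 and 34.9 (-1.13 ± 0.21). The noncoding 4931431B13Rik gave 58.0, 25.4 and 26.1 (-1.11 ± 0.21). Amer3, an APC-binding protein of the Wnt pathway, gave 98.7, 44.5 and 31.5 (-1.07 ± 0.21). All 4 of these genes were dim, and on each the Mst1r vector array was also below empty vector. Srrm4, a neural splicing factor, gave 98.9, 49.0 and 45.2 (-0.94 ± 0.21), and its other probe, in row 29, differed by -0.53. The called probes of these 5 genes lay in rows 144 to 177. None of these 5 genes was called with normexp, whose offset shrinks differences at such dim signals. With it Mindy2 differed by -0.53, 4931431B13Rik by -0.43 and Mdh1b by -0.41.

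Smaller lower calls fell on single dim genes, and no shared function is read from them. Ankrd33, an ankyrin repeat protein, gave 55.7 with empty vector and 28.5 with Slpi vector (-0.89). Zbtb37, a BTB zinc finger protein, gave 54.3 and 28.0 (-0.88). Sh2d2a, an adapter in T cells, gave 51.5 and 28.1 (-0.80), and its second probe, in row 312, differed by -0.28. Gimap8, a GTPase of lymphocytes, gave 41.7 and 22.9 (-0.78). A second Gimap8 probe, in row 33, gave 127 and 54.8 (-1.13), the same direction. Ogn, the matrix proteoglycan osteoglycin, gave 88.4 and 49.6 (-0.76). Fbxw13, an F-box protein, gave 46.6 and 26.2 (-0.75). Mccc2, a subunit of the carboxylase of leucine breakdown, gave 111 and 63.1 (-0.74), whereas its other probe, in row 88, gave 540 on both arrays. The called probes of Fbxw13 and Mccc2 lay in rows 246 and 254, and those of the other genes here in rows 131 to 181. None of these genes was called with normexp, whose offset shrinks differences at such dim signals. With it Zbtb37 differed by -0.27, Gimap8 by -0.13 and Sh2d2a by -0.0084.

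The 4 lower calls with a signal over 200 were an interval on chromosome 13 at 112717680 to 112733330 (mm9, reverse strand), with 2667 on the empty vector array and 1542 with Slpi vector (-0.71 ± 0.06), and the genes Wdr7, Lrrc8c and Lamtor3. Wdr7, a partner of the vacuolar proton pump, gave 1280 and 762 (-0.67 ± 0.07). Lrrc8c, a subunit of volume-regulated anion channels, gave 473 and 285 (-0.65 ± 0.07). Lamtor3, a scaffold of mTORC1 signalling at lysosomes, gave 360 and 227 (-0.59 ± 0.13), while its probe in row 5 gave 8226 and 8325. These 4 were picked with their values in view. The interval and Wdr7 were also called lower under normexp, as were ENSMUST00000161218 and the chromosome 14 interval, and no other feature was.

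Another probe of the same gene seldom showed the same difference. Across the whole array, 35 called genes had 40 other probes, 24 of which were well above background on both arrays. Of these 24, 11 differed in the same direction as the called probe and 1, for Gimap8, was itself past the call rule that way. Another 2, for Il24 and Brpf1, were past the call rule in the opposite direction. Only 5 of the 24 lay in the rows used, and 3 of these differed in the same direction. The rest lay in the rows left out for stray bright spots, among them these probes of Gimap8, Il24 and Brpf1. Within the rows used, 2254 genes had at least 2 probes in the comparison. In 16 of these the brightest or the second probe was called, and in 0 were both called in the same direction. The largest such gap was that of Ptpn6, the phosphatase SHP-1, whose dimmer probe went from 61.3 to 277 (2.25) while its brighter probe gave 547 and 498 (-0.06). Whether the called probes read the named transcripts was not tested.

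The 28 gene lists showed hardly any shift. They held 909 genes, of which 580 were among the features compared. The median difference of these 580 was 0.02 and 94.3% of them were within 1.2-fold, against a median of -0.0017 and 89.6% over all features. List medians ran from -0.11 to 0.10, and 26 of the 28 were within 0.1 of 0. With Mst1r vector the medians of the same lists ran from -0.50 to 0.53. In all, 2 genes were called higher, Il24 and Wfdc3, or 0.345% of the 580, and 1 was called lower, Shmt2, or 0.172%, beside 0.636% and 0.429% over all features. At those shares a list of this length holds few calls or none, so nothing is read from a list without one. Each list stands for its genes as read by the brightest probe in the rows used. List medians, and counts of members above or below 0, rest on the scaling used. Median scaling moved the median of all features to 0.16, and setting the spike-in controls equal moved it to -0.24.

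**Figure D5:**
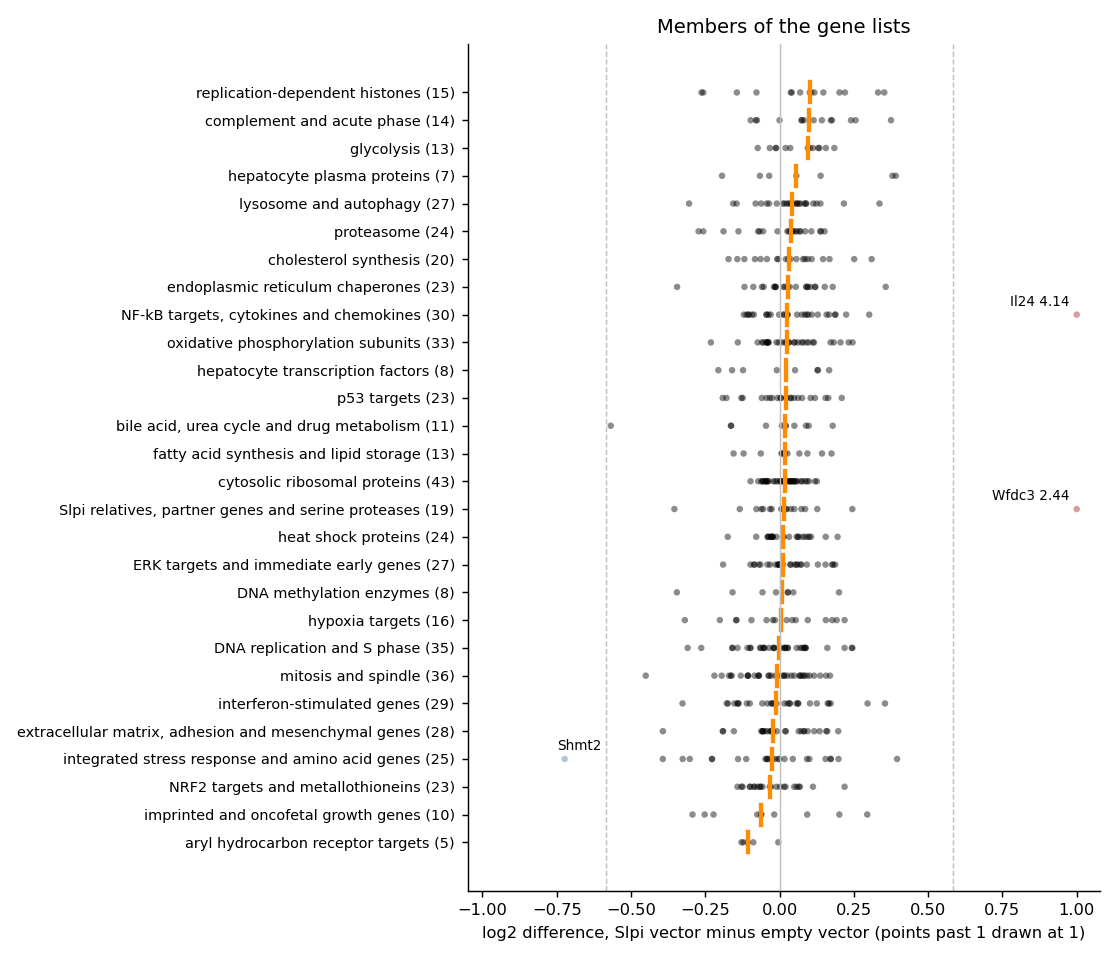
Log2 difference between Slpi vector and empty vector (horizontal axis) for the members of 28 gene lists, with the number of members compared in brackets. Each point is a gene, orange bars are list medians, dashed lines mark 1.5-fold, and points past 1 are drawn at 1 with their value. List medians lie between -0.11 and 0.10, and the called genes are Il24, Wfdc3 and Shmt2.

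Il24 was the call within the inflammatory lists. NF-kB drives cytokines, chemokines and survival genes, and of 30 members compared 1 was called higher and 0 lower, with a median of 0.03 and Birc2 lowest at -0.12. Interferon-stimulated genes, the antiviral programme, had 29 members and a median of -0.01, where the median with Mst1r vector was 0.53. Irf1, an activator of these genes, differed most, with 71.8 on the empty vector array and 86.9 with Slpi vector (0.35 ± 0.13). B2m, the light chain of MHC class I, gave 36978 and 32676 (-0.10 ± 0.06), and the antiviral sensor Oas1a gave 18923 and 18713 (0.06 ± 0.06). Complement and acute phase genes had 14 members, 10 of them above 0, and a median of 0.10. C3, the central complement protein, gave 33606 and 35876 (0.17 ± 0.06). Outside the lists, the acute phase gene Itih4 was called higher, as given above, and the chemokine Ccl4, picked with its values in view, was called lower, with 35.6 on the empty vector array, 21.4 with Slpi vector and 130 with Mst1r vector (-0.65 ± 0.21). Ccl4 differed by -0.41 at its second probe, in row 77, and was not called with normexp (-0.12).

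The relatives and partners of Slpi, with serine proteases, had 19 members compared, a median of 0.01 and Wfdc3 as the 1 call. Wfdc18 was lowest, with 32.0 on the empty vector array and 23.7 with Slpi vector (-0.35 ± 0.21). Wfdc13 gave 1354 and 1333 (0.06), and Wfdc12 gave 56.0 and 62.8 (0.24).

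Members of the liver lists differed by -0.57 to 0.39. Hepatocyte plasma proteins had 7 of 35 listed genes compared and a median of 0.06. Rbp4, the retinol carrier, gave 48007 with empty vector and 44381 with Slpi vector (-0.04 ± 0.06), and Alb, serum albumin, gave 3095 and 2800 (-0.07 ± 0.06). Hepatocyte transcription factors had 8 members and a median of 0.02, with Foxa2, a pioneer factor of liver, at 2200 and 2279 (0.13 ± 0.06). Genes of bile acids, the urea cycle and drug metabolism had 11 members and a median of 0.02. Abcc2, the canalicular export pump, came close to a call with 101 on the empty vector array and 64.8 with Slpi vector (-0.57 ± 0.13), and Mst1r vector gave 198. Slc10a1, the bile acid importer, gave 119470 and 117120 (0.05 ± 0.06). The aryl hydrocarbon receptor list had 5 of 13 listed genes compared, all below 0 with the scaling used, and a median of -0.11. Ahr, the receptor itself, gave 1642 and 1443 (-0.11 ± 0.06).

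Lipid and energy metabolism gave small differences of both signs. Cholesterol synthesis had 20 members and a median of 0.03, where Mst1r vector gave -0.50. Mvd, the decarboxylase of mevalonate diphosphate, differed most at 374 and 439 (0.31 ± 0.07), and Sqle, squalene epoxidase, gave 8314 and 7851 (-0.0044 ± 0.09). Fatty acid synthesis and lipid storage had 13 members and a median of 0.02, with Fasn, fatty acid synthase, at 24847 and 23767 (0.01 ± 0.06). Glycolysis had 13 members, 9 of them above 0, and a median of 0.09. Pgk1, phosphoglycerate kinase, gave 99362 and 104840 (0.16 ± 0.06) and Gapdh gave 130940 and 123060 (-0.01 ± 0.06). Oxidative phosphorylation had 33 members and a median of 0.03, and Atp5b, a subunit of ATP synthase, gave 103680 and 110610 (0.17 ± 0.06).

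Members of the growth and cell cycle lists differed by -0.45 to 0.35. DNA replication had 35 members, 17 above 0 and 18 below, with a median of -0.0028, and Mcm6, a helicase subunit, gave 36361 and 32898 (-0.07 ± 0.06). Mitosis had 36 members and a median of -0.01. Hmmr, a spindle protein, differed most at 88.3 and 61.2 (-0.45 ± 0.21), and Cdc20, the activator of the anaphase-promoting complex, gave 16374 and 15364 (-0.01 ± 0.09). Replication-dependent histones had the highest median, 0.10, with 11 of 15 members above 0 and H1f3 at 220 and 266 (0.35 ± 0.13). The p53 list had 23 members and a median of 0.02, with Trp53 at 2009 and 2200 (0.21 ± 0.06). ERK targets had 27 members and a median of 0.01, and Ccnd1, cyclin D1, gave 20610 and 19091 (-0.03 ± 0.06). The imprinted and oncofetal genes had 10 members and a median of -0.06.

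Stress and protein turnover lists held the 1 lower call, Shmt2, the mitochondrial enzyme of serine and folate metabolism, at 54.7 with empty vector and 31.4 with Slpi vector (-0.72 ± 0.21). The other Shmt2 probe, in row 95 outside the rows compared, gave 3346 and 3353. With normexp Shmt2 differed by -0.28 and was not called. The integrated stress response list, which holds it, had a median of -0.02 over 25 members, where Mst1r vector gave 0.25. Heat shock proteins had 24 members and a median of 0.01, with Hsp90ab1 at 74204 and 68900 (-0.03 ± 0.06). Endoplasmic reticulum chaperones had 23 members and a median of 0.03, with Canx, calnexin, at 27487 and 27814 (0.10 ± 0.06). NRF2 targets and metallothioneins had 23 members and a median of -0.03, and Mt1, a metallothionein, gave 44100 and 45152 (0.11 ± 0.06). The proteasome list had 24 members and a median of 0.04, with Psmd1, a regulatory subunit, lowest at 21339 and 16732 (-0.27 ± 0.06). Lysosome and autophagy genes had 27 members and a median of 0.04, and Hexa, a lysosomal hexosaminidase, gave 3248 and 3883 (0.34 ± 0.06).

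Members of the ribosomal, matrix, hypoxia and DNA methylation lists differed by -0.39 to 0.22. Ribosomal proteins had 43 members between -0.10 and 0.13 and a median of 0.02. Matrix, adhesion and mesenchymal genes had 28 members and a median of -0.02. Spp1, the secreted phosphoprotein osteopontin, was lowest at 17474 and 12606 (-0.39 ± 0.09), with 11335 on the Mst1r vector array, and did not reach a call. Hypoxia targets had 16 members and a median of 0.0040. The DNA methylation enzymes had 8 members and a median of 0.01, with Tet1, which oxidises 5-methylcytosine, lowest at 48.7 and 36.3 (-0.35 ± 0.21) and Uhrf1, a partner of Dnmt1, at 7468 and 7212 (0.03 ± 0.09).

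Probes printed at least 10 times gave the most precise differences. Of these, 256 were well above background on both arrays, with 5 to 10 spots each in the rows used and a median signal of 53470 on the empty vector array. All 256 were within 1.2-fold. The SD of their mean differences was 0.05, and the median standard error over spots was 0.02. H4c4, a histone H4 gene, had the highest mean, 0.20 ± 0.01 (SE, 10 spots, from 0.12 to 0.26), with 2103 on the empty vector array and 2290 with Slpi vector. Camk2b, a calcium-dependent kinase, had the lowest, -0.15 ± 0.02 (SE, 9 spots), with 425 and 363. Both signs held at every spot of these 2 probes. The 7 spike-in probes set the scale of such values, since their mean difference after scaling was 0.24 ± 0.04 (SD over probes). The standard error leaves out the scaling, which shifts every difference alike. Setting the spike-in controls equal moved the median of all features to -0.24, and median scaling moved it to 0.16. The signs of H4c4 and Camk2b therefore rest on the scaling used.

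The labels name liver as the tissue, and the marker lists were read in the same rows. Of 10 hepatocyte markers, 8 had a probe in these rows and 2 were well above background on both arrays, Alb and Apoa2, a lipoprotein subunit, with Apoa2 at 2630 and 2591. Ttr, Fgb, Apoh and Hnf4a, also defining markers of hepatocytes, were each under 5 on both arrays. Summed over the list, the hepatocyte markers gave 5760 with empty vector and 5454 with Slpi vector. Macrophage markers summed to 548 and 497, nearly all of it Cd68, with Ptprc, Adgre1, Clec4f and Tyrobp not above background, endothelial markers summed to 87.0 and 64.7, and lymphocyte markers to 12.7 and 11.8. Fibroblast markers summed to 12930 and 11940, with Col1a1, a collagen chain, at 6509 and 5662, and the bile duct keratin Krt7 gave 13189 and 13233. No marker that was well above background on both arrays was called. The cultures were of a hepatoma cell line, so the sums read marker genes and are not amounts of these cell types. In RNA of a whole culture, fewer cells expressing a marker and less RNA per cell cannot be told apart.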

How the data were processed

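Total RNA of the 3 cultures was labelled with Cy3 and hybridised to 1 array each, with groups taken from the sample labels. The deposited files held spot intensities that the authors extracted with Agilent Feature Extraction 12.0.3.1: the processed signal (background subtracted, spatially detrended, not scaled between arrays), median spot and local background intensities, and flags. A deposited table of intensities held the mean processed signal of each probe without scaling (within 0.01 log2 for at least 99.94% of the probes on each array). It was used as an alternative.

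For each probe, log2 processed signals of its spots after the first 128 rows were averaged, without non-uniform and population outlier spots, and the 75th percentile of all 56605 non-control probes of the array was subtracted, as in the methods. Features were called at 1.5-fold and 3 SD of repeated spots, pooled by signal over probes with at least 5 spots, controls included, and taken at the dimmer array. With 1 array per vector, no test between vectors was made, and their number limits how precise any difference is. Vector and slide position cannot be told apart. RefSeq accessions gave a symbol to 25126 of 47837 names through a table of GRCm38.p6 genes, and of 924 list entries 41 were renamed through a synonym and 2 had no match.

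The features, lists and rules were chosen with earlier results of these data known. Names were drawn from Slpi and the 12 named genes and 3 unnamed features with the largest calls each way. The extremes among probes printed at least 10 times were named too. For each list the rule gave the member with the largest difference, and called members or else the 2 brightest. Not all of these list members are named. Other names are marked as picked with their values in view, or are markers, other Slpi relatives, other Sprr2 family members and other probes. Birc2, Ptpn6, Klrh1, Col5a3, Gm13580 and XM_011243418 fall outside the rule and were also picked with their values in view. Alternatives are given in the closing section. Normexp (limma 3.58.1, R 4.3.3, offset 50) used the median spot intensity, since the files used here held no mean. The rest ran in Python 3.11.15 with numpy 2.4.6, pandas 2.3.3 and statsmodels 0.14.6. The call rule was run on simulated data with independent spot noise only, without stray spots or an effect of array position. That run does not show how the rule performs on these arrays.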

Additional observations from a re-analysis of the deposited data

Results flagged for a closer look

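Signal was also found outside the comparison, in features that were well above background with Slpi vector only. In the rows used there were 342 such features, 10 of them with a processed signal over 50 and 0 over 200, while 397 features were well above background with empty vector only, 9 of them over 50 and 0 over 200. The brightest was Klrh1, a lectin-like receptor of natural killer cells, with 127 on the Slpi vector array, 4.21 with empty vector and 4.32 with Mst1r vector. Col5a3, a collagen chain, gave 83.3, 3.99 and 3.98 in that order. Apoa1, the main protein of high-density lipoprotein and 1 of the hepatocyte markers, gave 43.1, 4.83 and 9.64. This signal was under 50, and its probe lay in row 167, in the first 64 of the rows used. Serpina1a, another hepatocyte marker, went the other way with 4.03, 11.6 and 4.45 (-1.45), all dim signals near background. Among the other hepatocyte markers in these rows, Alb and Apoa2 were well above background on both arrays and differed by -0.07 and 0.06. Ttr, Fgb, Apoh and Hnf4a were not well above background on either array, so nothing is read from their differences. Of the 10 features over 50 with Slpi vector only, 7 lay in the first 64 of the rows used, Klrh1 in row 140 among them. All 9 features over 50 with empty vector only lay there too. Among 1754 spots of dark ERCC spike-in control probes in all the rows used, 1 exceeded 50 with Slpi vector, at 159, and 0 with empty vector.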

How the results depend on the processing

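No paired analysis was possible because each vector had 1 array, and no array could be left out. Over the alternatives run, the correlation of the 2 arrays stayed at 0.9965 to 0.9977 except with all rows, where it was 0.994. Median scaling moved the median difference of all features to 0.16 and setting the spike-in controls equal moved it to -0.24, where the brighter Slpi probe differed by 0.29 and -0.11 and the dimmer by -0.065 and -0.47. Features called higher numbered 161 with median scaling, 314 with all rows, 31 with a signal over 200 on both arrays, 144 when either array had to be above background, and 50 at 2-fold. Features called lower numbered 101 with no scaling, 19 with median scaling, 358 with spike-in controls set equal, 4 with normexp, 314 with all rows, 35 without the first 64 of the rows used, 32 with a signal over 50 on the brighter array, 4 with a signal over 200 on both arrays, 173 with either array and 10 at 2-fold. Taken relative to the median of all features, 391 of 392 recomputed list medians moved by less than the spot error of a member. The exception was the aryl hydrocarbon receptor list, at -0.17 with normexp. A scaling that shifts every feature alike cannot move such a relative value, so those entries in the count were fixed in advance. The spot error of 1 member is also a wide limit for a median over many genes. Of 371 recomputed differences of the named genes and features, 349 kept their direction and call, 20, all lower calls, kept the direction only, and 2 changed sign with all rows, where a brighter probe in the upper rows stood for the gene. These were Akr1d1 at -0.45 and Mccc2 at 0.078. For the other changes the cause was not tested. Signal over background limits the dimmest class, where 58 of the 62 lower calls lay. That class also held 33 of the 92 higher calls and 3158 of the 14460 features.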
